A study of Mus musculus with 203 samples.

Results

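The comparison described here is dexamethasone treatment in the lung parenchyma of mice exposed to both house dust mite (HDM) and cigarette smoke (CS), and its members were chosen by their titles as the 10 libraries of the HDM.CS.DEX group and the 10 libraries of the HDM.CS group at 11 weeks, 20 libraries in all and 9.85% of the RNA-seq libraries of the series. All mice were female BALB/c animals aged 18 to 20 weeks. Both groups received HDM extract through the nose, first on 5 days of each week for 3 weeks and then 3 times per week from weeks 4 to 11, together with CS 2 times per day on 5 days per week for 8 weeks, as a model of asthma overlapping with chronic obstructive pulmonary disease (COPD). The HDM.CS.DEX mice were also given dexamethasone (DEX) during week 11, with the dose and route not given in the sources used here. The other parenchyma groups at 11 weeks used beside them were PBS.AIR and HDM.AIR, which breathed air, PBS.CS, which received phosphate buffered saline (PBS) and CS, and the DEX-treated counterpart of each, with 10 libraries per group. The HDM.CS and HDM.CS.DEX airways, dissected away from the parenchyma under a microscope, were compared as well.

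Dexamethasone is a synthetic ligand of the glucocorticoid receptor, a nuclear receptor that moves to the nucleus when bound, activates genes through response elements in DNA and represses inflammatory genes by tethering to other factors. Glucocorticoids are known for killing immature and resting lymphocytes, for lowering the number and maturity of dendritic cells and eosinophils, and for promoting surfactant production by alveolar type II cells. They are less effective in airway disease of smokers and in neutrophilic inflammation.

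Total counts per library ranged from 23795485 to 32942679 in HDM.CS and from 24692020 to 34942441 in HDM.CS.DEX. Levels of single genes below are counts-per-million (CPM) scaled by trimmed mean of M-values (TMM) and are compared for 1 gene between groups, not between genes. Levels summed over several genes are CPM of the total counts, without TMM scaling. In both groups the markers of alveolar type II cells (Sftpa1, Sftpb, Sftpc, Abca3 and Lamp3) together made up 15580 to 31990 CPM, the markers of club cells 16760 to 31030, and those of cartilage at most 0.142 and of adipocytes at most 3.215. 1 library stood apart: HDM.CS.DEX replicate 8. Its Pearson correlation with the median of its group was 0.98, against 0.989 to 0.993 for the other libraries of both groups over all genes tested. Counts and values without it are given for a part of the results, and where not stated values are from all libraries. Nothing in the labels says outright that each library is 1 animal, so p-values rest on the spread between libraries. That spread was estimated over all 160 libraries of the 16 groups at 11 weeks, not over the 20 libraries alone.

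After dexamethasone, 449 of 18250 genes rose (2.46%) and 985 fell (5.4%) at an adjusted p under 0.05 in limma. With a log2 fold change (log2FC) of at least 1 in either direction, 21 rose (0.115%) and 350 fell (1.92%). The median log2FC over all genes tested was -0.01. All 10 treated libraries lay above all 10 untreated libraries for 35 genes (0.192%) and below them for 1.12% of genes. With DESeq2, 694 genes rose and 956 fell. Without HDM.CS.DEX replicate 8, 310 genes rose and 872 fell, of which 278 and 762 were among those of the full set. The largest falls included genes of red cells, dendritic cells and germinal centres and Clca1, a gene of goblet cells. The libraries are bulk tissue, in which fewer cells of a type and less RNA per cell cannot be told apart.

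Red cell genes showed the largest falls. Of the 12 tested genes of the erythroid and platelet list, 10 fell and none rose (background 5.4% lower and 2.46% higher), with a median log2FC of -3.43. Slc4a1 (ENSMUSG00000006574.11, mm10 chr11:102348824-102366203, minus strand), the anion exchanger of the red cell membrane, ranged from 1.13 to 3.45 CPM (median 2.12) in HDM.CS and from 0 to 0.227 CPM (median 0.0385) in HDM.CS.DEX, a log2FC of -5.26 ± 0.63 (SE, n = 10 per group, adjusted p = 6.07e-11). Every treated library was below every untreated one. Alas2, the erythroid enzyme that begins haem synthesis, ranged from 53.1 to 112.7 CPM (median 93.97) without and from 1.70 to 20.4 CPM (median 6.76) with DEX, a log2FC of -3.80 ± 0.36 (adjusted p = 1.26e-15). The beta globin gene Hbb-bt ranged from 209.9 to 552 CPM (median 357) and, with DEX, from 7.32 to 48.4 CPM (median 23.35), with a log2FC of -4.06 ± 0.37 (adjusted p = 1.17e-16), the smallest p of any gene. Hbb-bs (log2FC -3.44), Hba-a1 (-3.42) and Hba-a2 (-3.30) fell as well, each with no overlap between groups. Hba-a1 and Hba-a2 are nearly identical copies, as are Hbb-bs and Hbb-bt, so how reads were divided within each pair is uncertain. The platelet genes moved less: Pf4, a platelet chemokine, fell by 0.70 on the log2 scale and Itga2b, the platelet integrin, by 0.58. In PBS.AIR parenchyma, which had neither exposure, Hbb-bt had a median of 474 CPM and Alas2 of 93.6 CPM, and the lowest PBS.AIR library, at 126.4 and 64.5 CPM, was above the highest treated one for both genes. The summed level of the list was 5782 to 11980 CPM in HDM.CS and 291 to 2026 in HDM.CS.DEX.

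The sequences before 3 of these genes are shown because the globin genes and Alas2 moved together and are known to be driven by GATA factors. They come from RefSeq windows on GRCm38.p6 (mm10), are written 5′ to 3′ on the strand of the gene, and end where the gene begins in GENCODE M21. Capitals mark AGATAA or TGATAA, the core bound by GATA factors, or its reverse complement. The stretches are Alas2 at chrX:150547167-150547374 (plus strand), Hba-a1 at chr11:32283422-32283510 (plus strand) and Hbb-bs at chr7:103828097-103828178 (minus strand).
Alas2: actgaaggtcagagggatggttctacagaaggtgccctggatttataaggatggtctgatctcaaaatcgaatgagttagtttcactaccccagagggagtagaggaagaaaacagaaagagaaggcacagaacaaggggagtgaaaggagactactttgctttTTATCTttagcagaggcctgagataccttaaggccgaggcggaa
Hba-a1: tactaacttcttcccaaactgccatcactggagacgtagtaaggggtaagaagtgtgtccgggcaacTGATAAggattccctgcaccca
Hbb-bs: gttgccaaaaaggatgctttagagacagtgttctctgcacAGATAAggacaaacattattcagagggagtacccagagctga
On both strands of the 250 bases before the RefSeq start, AGATAA stood in 2 of the 9 erythroid and platelet genes that the table held (Alas2 and Hbb-bs) and in 11.4% of all 27025 genes, and TGATAA in 2 of the 9 (Hba-a1 and Hba-a2) and in 9.21% of all genes. A match is a description of these letters only.

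**Figure D1:**
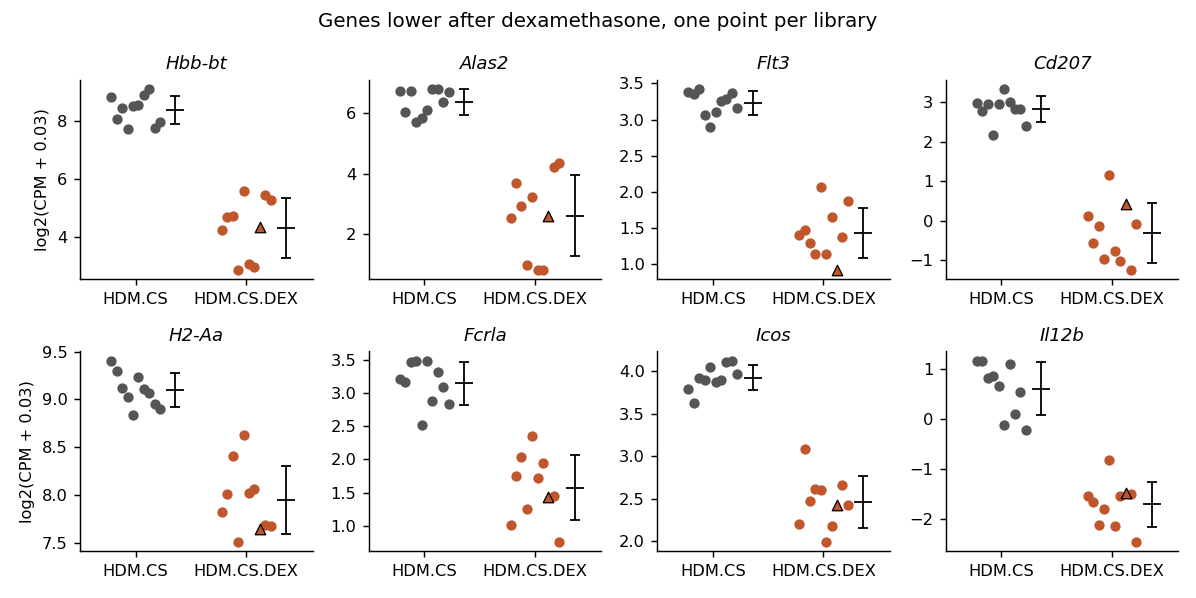
Levels of 8 genes that fell after dexamethasone, as log2(CPM + 0.03) on the vertical axis, in 10 HDM.CS and 10 HDM.CS.DEX parenchyma libraries, with the mean ± SD beside each group and HDM.CS.DEX replicate 8 as a triangle. In each of the 8 genes every treated library lies below every untreated one.

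Dendritic cells capture antigen in the lung and present it to T cells, and the cDC1 subset among them takes up dying cells and is marked by Xcr1, Clec9a, Itgae and Cd207. Of 16 tested dendritic cell genes, 12 fell and none rose, with a median log2FC of -1.01. Flt3 (ENSMUSG00000042817.13, mm10 chr5:147330741-147400489, minus strand), the growth factor receptor that dendritic cells depend on, ranged from 7.40 to 10.7 CPM (median 9.62) in HDM.CS and from 1.86 to 4.15 CPM (median 2.59) in HDM.CS.DEX, a log2FC of -1.81 ± 0.18 (adjusted p = 2.89e-15). Cd207, the lectin langerin, ranged from 4.45 to 10.1 CPM (median 7.42) and from 0.389 to 2.21 CPM (median 0.759), a log2FC of -3.17 ± 0.32 (adjusted p = 2.58e-14). Neither gene overlapped between the groups. The other cDC1 markers fell likewise with no overlap. Xcr1, a chemokine receptor, had a log2FC of -2.52 ± 0.32, Clec9a, a receptor for dead cells, -1.89 ± 0.21, and Itgae, the integrin CD103 that T cells of the epithelium also carry, -1.77 ± 0.18. In PBS.AIR parenchyma the medians were 4.38 CPM for Flt3 and 5.50 CPM for Cd207, which lie between those of the untreated and the treated exposed mice for both genes. Summed over the whole list, levels were 245 to 313 CPM without DEX and 134.3 to 209.9 with it.

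MHC class II molecules carry antigen peptides to the surface of these and other antigen-presenting cells, B cells included. Of 15 tested genes of this pathway, 12 fell and none rose, with a median log2FC of -0.81. The alpha chain gene H2-Aa ranged from 458 to 679 CPM (median 544.5) in HDM.CS and from 182.6 to 395 CPM (median 243) in HDM.CS.DEX, a log2FC of -1.14 ± 0.16 (adjusted p = 1.3e-08) with no overlap. The beta chain genes H2-Eb1 (log2FC -1.31 ± 0.18, adjusted p = 2.46e-08) and H2-Ab1 (-1.13 ± 0.21, adjusted p = 4.69e-05) fell with 9 and 8 of 10 treated libraries below the lowest untreated one. Cd74, the invariant chain that guides these molecules to the endosome, fell by 0.81 on the log2 scale, from a median of 1299 CPM to 767 CPM, with no overlap. The medians of H2-Aa and Cd74 in PBS.AIR parenchyma were 351.5 and 816 CPM. In the MHC class I list, whose members present peptides from inside the cell, 7 of 14 tested genes fell, at smaller size (median log2FC -0.37). Its transporter Tap1 had a log2FC of -0.57 ± 0.16 (adjusted p = 0.0143) and B2m, the light chain, -0.36 ± 0.11 (adjusted p = 0.0211), and the nonclassical heavy chain genes H2-T23 and H2-Q7, which have close copies, -0.59 and -0.62. B2m no longer passed without HDM.CS replicate 1 (-0.32) or 2 (-0.33) or HDM.CS.DEX replicate 1 (-0.32), nor did H2-Q7 without HDM.CS replicate 1 or HDM.CS.DEX replicates 1 or 9 (-0.56, -0.56 and -0.55).

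The 250 bases before H2-Aa and H2-Eb1 are shown because class II genes share a promoter element, the Y box, that binds NF-Y. Both are from RefSeq on GRCm38.p6, 5′ to 3′ on the strand of the gene, H2-Aa at chr17:34287824-34288073 (minus strand) and H2-Eb1 at chr17:34305617-34305866 (plus strand), and capitals mark the Y box CTGATTGG.
H2-Aa: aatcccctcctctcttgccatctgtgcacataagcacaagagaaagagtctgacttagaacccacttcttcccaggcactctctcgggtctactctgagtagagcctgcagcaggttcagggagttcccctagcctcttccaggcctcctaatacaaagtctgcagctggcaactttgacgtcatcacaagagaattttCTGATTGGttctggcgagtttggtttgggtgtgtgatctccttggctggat
H2-Eb1: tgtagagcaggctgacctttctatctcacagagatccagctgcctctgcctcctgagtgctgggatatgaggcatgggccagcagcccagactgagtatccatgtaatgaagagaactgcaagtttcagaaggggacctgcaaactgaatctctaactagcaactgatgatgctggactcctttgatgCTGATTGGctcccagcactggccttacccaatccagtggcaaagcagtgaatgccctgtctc
The element begins 51 bases before the RefSeq start in H2-Aa and 62 bases before it in H2-Eb1. On both strands it stood in the windows of 3 of the 10 genes of the pathway that the table held (H2-Aa, H2-Eb1 and H2-Oa) and in 4.43% of all genes.

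Lymphocyte genes fell as a body. Of 17 tested B cell genes, 14 fell and none rose, with a median log2FC of -1.33. Fcrla, an Fc receptor-like protein of B cells, ranged from 5.69 to 11.2 CPM (median 9.07) in HDM.CS and from 1.67 to 5.10 CPM (median 2.98) in HDM.CS.DEX, a log2FC of -1.60 ± 0.28 (adjusted p = 1.6e-05) with no overlap. The coactivator gene Pou2af1 had a log2FC of -1.22, also with no overlap, and the transcription factor gene Spib -1.34. Of 17 tested plasma cell genes, 8 fell and none rose. Irf4, a transcription factor that plasma cells and activated T cells need, had a log2FC of -0.96 ± 0.19 (adjusted p = 0.000124), Mzb1, a chaperone for antibody assembly, -1.15 ± 0.25 (adjusted p = 0.000646), Derl3, a factor of protein disposal, -0.92 ± 0.24, and Ighg2b, a heavy chain gene whose reads may be shared with other immunoglobulin genes, -1.48 ± 0.42 (adjusted p = 0.0127). Mzb1 had a median of 24.9 CPM after treatment against 5.79 CPM in PBS.AIR, while Fcrla had 2.98 against 7.20 CPM. Of 11 tested germinal centre genes 5 fell and 1 rose. Gcsam, a signalling adaptor of germinal centre B cells, ranged from 2.67 to 4.73 CPM (median 3.68) without and from 0.276 to 1.18 CPM (median 0.503) with DEX, a log2FC of -2.72 ± 0.32 (adjusted p = 3.5e-11) with no overlap. The member that rose was S1pr2, a sphingosine phosphate receptor that other lung cells also express, with a log2FC of 0.33 ± 0.09 (adjusted p = 0.00808).

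Of 20 tested T cell genes, 14 fell and none rose, with a median log2FC of -0.99. Cd3e and Cd3g, subunits of the T cell receptor complex, and Cd6, a surface glycoprotein, had log2FCs of -1.20, -1.28 and -1.35, each with no overlap. Among the checkpoint and regulatory genes 12 of 20 fell and none rose. Icos, a costimulatory receptor, ranged from 12.3 to 17.45 CPM (median 15.0) in HDM.CS and from 3.94 to 8.45 CPM (median 5.42) in HDM.CS.DEX, a log2FC of -1.46 ± 0.19 (adjusted p = 4.2e-09). The inhibitory receptors Pdcd1 (log2FC -1.35 ± 0.24) and Ctla4 (-1.49 ± 0.29) and the transcription factor Maf (-0.57 ± 0.10) fell too, and none of these 4 genes overlapped. After treatment the medians of Icos, Pdcd1 and Ctla4 were above those of unexposed tissue, 3.29, 0.530 and 0.831 CPM in PBS.AIR against 5.42, 2.35 and 2.25 CPM in HDM.CS.DEX. Cytotoxic lymphocyte genes fell in 8 of 14 cases, among them the granzyme gene Gzmk (log2FC -2.14 ± 0.46) and the killer cell receptors Klrg1 (-1.44), Klrk1 (-1.11) and Klrd1 (-1.20), with overlap in each. In the list of the CXCR3 axis and interferon gamma 6 of 14 fell and none rose. Il12b, the p40 chain of interleukin-12 and interleukin-23, ranged from 0.821 to 2.21 CPM (median 1.64) and from 0.151 to 0.533 CPM (median 0.298), a log2FC of -2.36 ± 0.36 (adjusted p = 2.89e-07) with no overlap. Its receptor chain Il12rb1 (-1.23 ± 0.21) and the chemokine receptor Cxcr3 (-1.16 ± 0.23) fell without overlap and the transcription factor Tbx21 (-1.20 ± 0.30) with it. The thymocyte list fell in 4 of 8 cases, but its summed level over 12 measured genes was 86.1 to 102.5 CPM in HDM.CS, while the defining markers Rag1, Ptcra and Dntt together were at most 0.431.

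Genes induced by type I interferon fell in 10 of 20 cases with none higher, with a median log2FC of -0.59. Rsad2, an antiviral enzyme, ranged from 5.69 to 22.9 CPM (median 7.90) without and from 2.52 to 4.93 CPM (median 3.51) with DEX, a log2FC of -1.32 ± 0.26 (adjusted p = 0.000177) with no overlap. The nucleotide kinase Cmpk2 (-0.45) and the GTPases Mx1 (-1.11) and Mx2 (-0.71) fell as well. HDM.CS replicate 2 was the highest library for all 4 of these genes, and without it Mx2 no longer passed (-0.61). Without HDM.CS.DEX replicate 8, which had the lowest level of Cmpk2 and Mx2, Mx2 did not pass either (-0.59) and 4 of the 20 fell, with a median of -0.55.

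Genes of allergic inflammation fell in part, beside 5.4% of all genes tested. In the type 2 list, which holds the cytokines and receptors of allergy, 3 of 17 fell and none rose, with a median log2FC of -0.53: Il9r, the interleukin-9 receptor (log2FC -1.85 ± 0.34, adjusted p = 3.75e-05), Il1rl1, the receptor of interleukin-33 (-0.98 ± 0.22, adjusted p = 0.000827), and Gata3, the transcription factor of type 2 lymphocytes (-0.57 ± 0.15, adjusted p = 0.00593). Il9r and Gata3 did not overlap. The cytokines themselves did not pass, with Il13 at a log2FC of -1.35 (adjusted p = 0.14), Il5 at -0.72 (adjusted p = 0.38) and Il4 at -0.48 (adjusted p = 0.61). Of the eosinophil genes 4 of 13 fell and all 13 had a log2FC below 0, with a median of -0.98 (-0.77 without HDM.CS.DEX replicate 8). These were the chemokine eotaxin, Ccl11 (-1.42 ± 0.44, adjusted p = 0.0274), the ribonuclease genes Ear1 (-1.65 ± 0.26) and Ear2 (-1.16 ± 0.26), which are close copies, and Siglecf (-0.86 ± 0.20), which alveolar macrophages also express. The defining eosinophil markers Epx, Prg2 and Ccr3 together were at 2.53 to 5.19 CPM in HDM.CS and 0.80 to 6.15 CPM in HDM.CS.DEX. Neither of the 2 that were tested passed. Ccl11 lost the threshold without HDM.CS replicates 2, 4 or 9 or HDM.CS.DEX replicates 4 or 9, at log2FCs of -1.23 to -1.34. Of the 17 goblet cell genes, which make mucus, only Clca1, a secreted regulator of mucus, fell. Clca1 ranged from 1.33 to 106.7 CPM (median 11.5) in HDM.CS and from 0.170 to 4.02 CPM (median 0.847) in HDM.CS.DEX, a log2FC of -4.24 ± 1.35 (adjusted p = 0.0325), with overlap, and it lost the threshold without HDM.CS replicates 4 or 9 or HDM.CS.DEX replicates 4, 8 or 9, at log2FCs of -3.87 to -4.39. Muc5ac, the gel-forming mucin, had a log2FC of -1.13 (adjusted p = 0.11). In the list of chitinase-like and alternatively activated macrophage genes 4 of 19 fell, with a median of -0.45: Cd209e (-2.40 ± 0.49), a lectin, Pdcd1lg2 (-1.15), a ligand of Pdcd1, the chemokine gene Ccl22 (-1.14) and the lectin Mgl2 (-0.91). The summed level of this list changed little, with a median of 8069 CPM in HDM.CS and 7627 CPM in HDM.CS.DEX.

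No fall was found for neutrophil granule genes. None of the 15 tested granule and alarmin genes passed in either direction in limma, edgeR or DESeq2, with 6 at an unadjusted p under 0.05 in limma, a median log2FC of 0.41 and 10 of 15 above 0. S100a8 and S100a9, the calcium-binding alarmins, had log2FCs of 0.58 (adjusted p = 0.23) and 0.55 (adjusted p = 0.32). Among 18 neutrophil chemokines and growth factors, 2 fell and 1 rose (background 5.4% lower and 2.46% higher). Il17f and Il17a, the T cell cytokines that recruit neutrophils, ranged from 5.55 to 16.0 CPM (median 10.3) and from 10.4 to 27.96 CPM (median 15.5) in HDM.CS. With DEX they ranged from 1.66 to 6.49 CPM (median 2.58) and from 3.11 to 13.5 CPM (median 4.17), log2FCs of -1.80 ± 0.23 (adjusted p = 9.03e-10) and -1.69 ± 0.26 (adjusted p = 5.87e-07). For both, 9 of 10 treated libraries were below the lowest untreated one, and both stayed above PBS.AIR, where their medians were 0 and 0.134 CPM. Lif, a cytokine of the interleukin-6 family, rose by a log2FC of 0.72 ± 0.17 (adjusted p = 0.00298). The neutrophil chemokines Cxcl1 (0.31, adjusted p = 0.57), Cxcl2 (0.06, adjusted p = 0.94) and Cxcl5 (-0.19, adjusted p = 0.88) did not pass. Among 17 monocyte chemokines and receptors, Ccl8 fell from a median of 43.97 CPM to 11.5 CPM (log2FC -1.88 ± 0.32, adjusted p = 8.46e-06), while Ccl2, the main monocyte attractant, rose from 10.6 to 18.25 CPM (0.85 ± 0.24, adjusted p = 0.011). The rise of Ccl2 did not pass in edgeR or without HDM.CS replicate 8 (0.70).

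**Figure D2:**
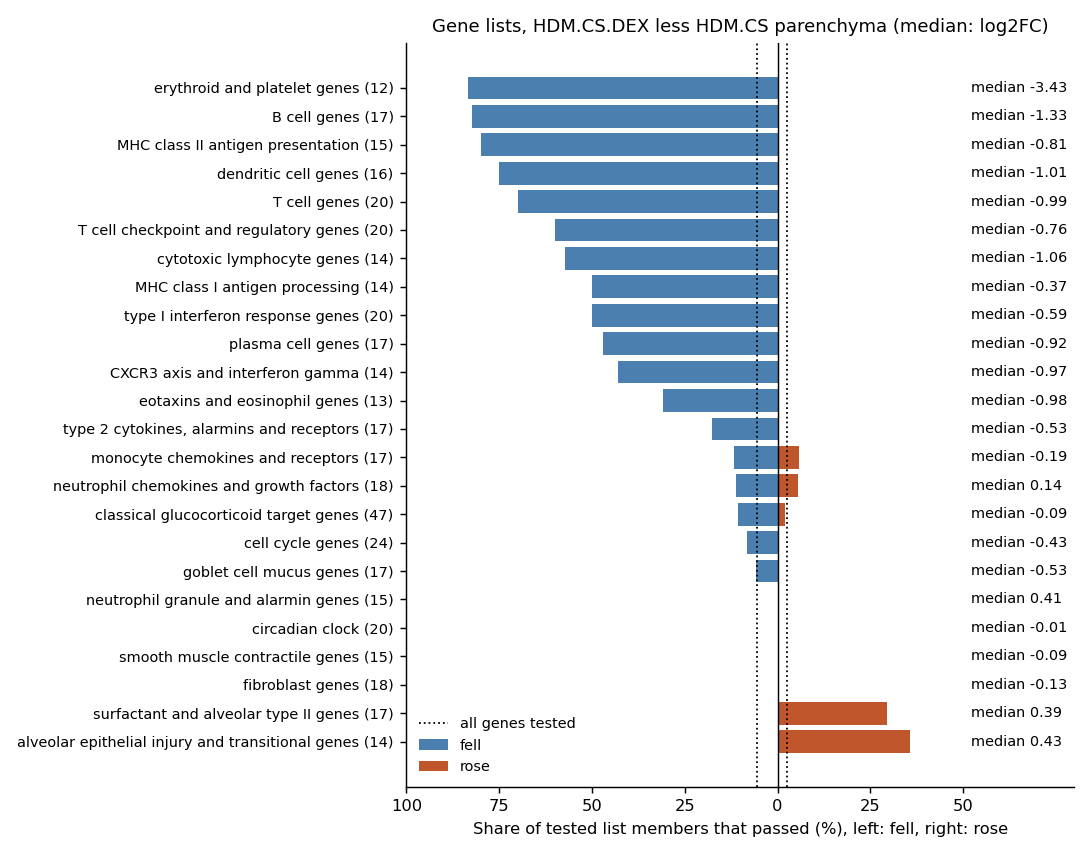
Share of the tested members of 24 gene lists (number tested in brackets) that fell, to the left, or rose, to the right, after dexamethasone, with the share over all genes tested as dotted lines and each list's median log2FC at the right. The erythroid, B cell, MHC class II, dendritic and T cell lists have 10 of 12, 14 of 17, 12 of 15, 12 of 16 and 14 of 20 members lower, and the surfactant and transitional epithelial lists are those of the 24 with the most members higher, 5 each.

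Of 17 tested surfactant and alveolar type II genes, 5 rose and none fell (background 2.46% higher), with a median log2FC of 0.39. Sftpb, a surfactant protein, ranged from 1473 to 2479 CPM (median 1949) in HDM.CS and from 2333 to 4919 CPM (median 3224) in HDM.CS.DEX, a log2FC of 0.71 ± 0.16 (adjusted p = 0.000833), with 9 of 10 treated libraries above the highest untreated one. Elovl1, a fatty acid elongase, ranged from 260 to 385 CPM and from 386 to 691 CPM without overlap (0.61 ± 0.15, adjusted p = 0.00344), Lyz1, the lysozyme of these cells, had a log2FC of 0.79 ± 0.19, and Napsa, the protease that processes surfactant proteins, 0.65 ± 0.18. Sftpb had a median of 2092 CPM in PBS.AIR, below the treated median of 3224 CPM. Of 14 tested genes of injured and transitional alveolar epithelium, 5 rose and none fell. The keratin genes Krt19, Krt8 and Krt18 had log2FCs of 0.68 ± 0.12, 0.59 ± 0.13 and 0.50 ± 0.11, and Cldn4, a tight junction protein, 0.79 ± 0.26 (adjusted p = 0.0365). In the alveolar type I list Aqp5, a water channel, rose alone of 15 (0.45 ± 0.12, adjusted p = 0.00877). Without HDM.CS.DEX replicate 8, 4 surfactant and 3 transitional genes rose, with medians of 0.35 and 0.26, and Cldn4 no longer passed (0.57). Cldn4 also lost the threshold without HDM.CS replicates 3, 7, 8, 9 or 10 or HDM.CS.DEX replicate 6, at 0.74 to 0.78.

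By p the rises were led by Ano1 (ENSMUSG00000031075.13, mm10 chr7:144588549-144751974, minus strand), a calcium-activated chloride channel of epithelium and smooth muscle, which ranged from 64.97 to 90.8 CPM (median 79.98) in HDM.CS and from 105.2 to 145.1 CPM (median 122.6) in HDM.CS.DEX, a log2FC of 0.65 ± 0.08 (adjusted p = 4.14e-11). Fgfbp1, which releases fibroblast growth factors from matrix, ranged from 12.7 to 20.5 CPM and from 22.6 to 34.5 CPM (0.75 ± 0.12, adjusted p = 3.49e-06), and the treated median of 25.7 CPM lay close to the PBS.AIR median of 25.3 CPM. Neither gene overlapped. Serpinb9b (ENSMUSG00000021403.2, mm10 chr13:33027416-33041884, plus strand), 1 of a cluster of close copies of a granzyme inhibitor, ranged from 1.78 to 3.29 CPM (median 2.53) and from 4.91 to 28.3 CPM (median 8.24), a log2FC of 1.79 ± 0.25 (adjusted p = 1.93e-08). S100a14, a calcium-binding protein of epithelium, ranged from 20.7 to 46.6 CPM and from 47.9 to 179.8 CPM (1.19 ± 0.19, adjusted p = 8.3e-07), and Msln, the mesothelial surface protein mesothelin, from 14.7 to 23.6 CPM and from 26.7 to 156.1 CPM (1.45 ± 0.29, adjusted p = 0.000196). These 3 did not overlap, and HDM.CS.DEX replicate 8 was the highest library for each. All 3 passed in each of the 20 limma fits that left out 1 library, with highest adjusted p of 2.77e-07, 2.38e-05 and 0.00168. Rab25, a vesicle GTPase of epithelium, rose by 0.51 ± 0.09. Mt3, a metallothionein, had the largest rise by log2FC among protein-coding genes with a mean of at least 1 CPM (2.40 ± 0.50, adjusted p = 0.000395) at a low level, from a median of 0.175 CPM to 1.06 CPM. The ceramide synthase Cers3 (1.18), the steroid dehydrogenase Hsd3b2 (1.08), the transporter Slc23a3 (1.03), the matrix proteoglycan Vcan (0.98), the pericyte signalling regulator Rgs5 (0.97), the muscle myosin Myh13 (0.93), and AU018091 (1.54) and D6Ertd527e (0.94) completed the 12 largest rises, of which D6Ertd527e did not pass without HDM.CS.DEX replicate 8 (0.84). Another of the 12 largest falls was Klk1, a tissue kallikrein of a family of close copies, with a log2FC of -2.77 ± 0.40 (adjusted p = 5.96e-08).

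**Figure D3:**
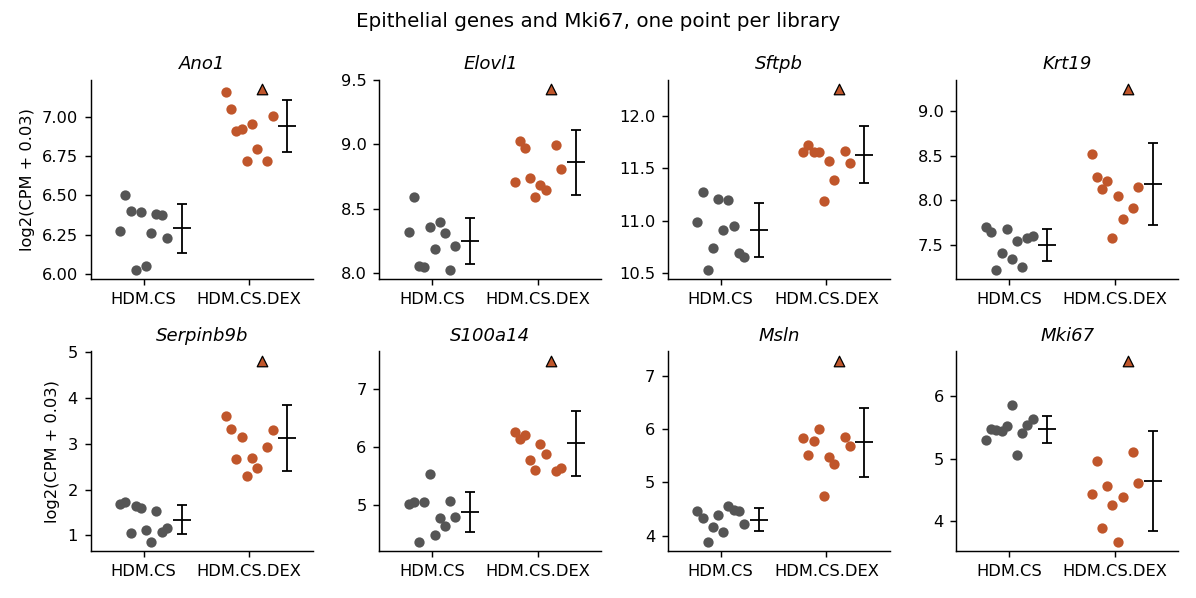
Levels of 7 genes that rose after dexamethasone and of Mki67, as log2(CPM + 0.03), in 10 HDM.CS and 10 HDM.CS.DEX parenchyma libraries, with the mean ± SD beside each group. HDM.CS.DEX replicate 8, the triangle, is the highest of the 20 libraries in each panel and reaches 95.4 CPM for Mki67, while the other 9 treated libraries are below or within the untreated range.

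Genes that glucocorticoids induce directly in many tissues did not rise as a group. Of 47 tested classical glucocorticoid targets, 1 rose and 5 fell (background 2.46% higher and 5.4% lower), with a median log2FC of -0.09. Tsc22d3, which encodes the glucocorticoid-induced leucine zipper GILZ, ranged from 104.7 to 213 CPM (median 148.8) in HDM.CS and from 76.99 to 101 CPM (median 86.8) in HDM.CS.DEX, a log2FC of -0.72 ± 0.23 (adjusted p = 0.0373) with no overlap. Zbtb16, a transcription factor induced by steroids, ranged from 8.26 to 49.98 CPM (median 20.4) and from 3.67 to 20.6 CPM (median 6.47), a log2FC of -1.54 ± 0.45 (adjusted p = 0.0176). Sesn1 (-0.34 ± 0.07) and Ddit4 (-0.58 ± 0.16), stress genes that restrain growth signalling, also fell, as did Fam107a (-0.95, adjusted p = 0.048). Fkbp5, the chaperone that feeds back on the receptor, ranged from 38.9 to 57.7 CPM (median 43.4) and from 34.9 to 92.2 CPM (median 40.8), a log2FC of -0.06 ± 0.21 (adjusted p = 0.924). The clock gene Per1 (-0.33 ± 0.35, adjusted p = 0.698), the phosphatase gene Dusp1 (-0.28 ± 0.13, adjusted p = 0.195), the kinase gene Sgk1 (-0.12 ± 0.12), the transcription factor gene Klf9 (-0.04 ± 0.14) and the metallothionein gene Mt2 (0.53 ± 0.24, adjusted p = 0.182) did not pass. The 1 member that rose was Tgm2, a crosslinking enzyme (0.25 ± 0.08, adjusted p = 0.0333), and it did not pass without HDM.CS.DEX replicate 8 (0.21), nor without HDM.CS.DEX replicate 10 or HDM.CS replicates 4, 6, 8 or 10 (0.24 each). The fall of Tsc22d3 lost the threshold without HDM.CS replicates 1, 5, 6, 8, 9 or 10 or HDM.CS.DEX replicates 1, 2, 4, 6 or 8, at log2FCs of -0.66 to -0.72. Nr3c1, the glucocorticoid receptor itself, had a log2FC of -0.15 ± 0.07 (adjusted p = 0.183), and Hsd11b1, the enzyme that regenerates active steroid, 0.21 ± 0.13 (adjusted p = 0.411). Abcb1b, a pump that exports steroids, rose by 0.32 ± 0.10 (adjusted p = 0.032), but not without HDM.CS replicates 7, 8, 9 or 10 or HDM.CS.DEX replicates 5, 6 or 7 (0.28 to 0.31). None of the 20 tested circadian clock genes passed in either direction in limma, edgeR or DESeq2, with 1 at an unadjusted p under 0.05 in limma and the smallest adjusted p at 0.234 (Cry2, 0.19), and the time between the last dose and tissue collection is not given in the sources used here. The full glucocorticoid response element, AGAACA and TGTTCT spaced by 3 bases, searched on both strands of the 250 bases before the RefSeq start, stood before 1 of the 41 target genes in the table (Sgk1), before 0.0111% of all genes, and before none of the 350 genes that rose or the 697 that fell and had a window.

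None of the fibroblast, smooth muscle, cardiac muscle or adipose genes passed in limma, of 18, 15, 14 and 14 tested, with 4 fibroblast genes and 0 of the others at an unadjusted p under 0.05. edgeR called none of them and DESeq2 only the cardiac and skeletal muscle gene Ttn. Of 17 collagen genes 1 rose, Col6a1 (0.35 ± 0.10), and it did not pass without HDM.CS.DEX replicate 8 (0.26). Of 24 matrix genes 3 fell and 1 rose, with a median log2FC of 0.03. Postn, the matricellular protein periostin, fell (-0.43 ± 0.12), Thbs4 fell (-2.49 ± 0.77) and Thbs1 rose (0.63 ± 0.19), the last not without replicate 8 (0.55) and Thbs4 not without HDM.CS replicates 4 (-2.34) or 8 (-2.28). Of 20 proteases and inhibitors 3 fell and 2 rose, with a median of 0.02. Slpi, the leukocyte protease inhibitor, fell from a median of 392 to 176.3 CPM (-1.11 ± 0.22, adjusted p = 0.000139), Ctss, the cathepsin of antigen-presenting cells, fell (-0.50 ± 0.15), and Adamts4, an aggrecanase, rose (0.90 ± 0.26), of which the last 2 did not pass without replicate 8 (-0.44 and 0.71), and Ctss not without HDM.CS.DEX replicate 1 (-0.46). Of 18 complement genes, 3 fell and 1 rose, with Cfp, properdin, lower in every treated library than in any untreated one (-0.89 ± 0.18) and the protease C1s1 at -0.59 ± 0.13. Over all genes tested 5.4% fell and 2.46% rose, and the counts of these short lists were not tested against those shares.

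The number of cell cycle genes that fell depended on 1 library, which went against the fall. With all libraries, 2 of 24 cell cycle genes fell (8.33%), with a median log2FC of -0.43. Mki67, the proliferation marker, ranged from 33.3 to 58.3 CPM (median 44.2) in HDM.CS and from 12.7 to 95.4 CPM (median 22.6) in HDM.CS.DEX, a log2FC of -0.81 ± 0.21 (adjusted p = 0.00648), and Top2a, a topoisomerase of dividing cells, had -0.82 ± 0.23 (adjusted p = 0.0137). Neither passed in edgeR or DESeq2. HDM.CS.DEX replicate 8 was the highest of the 20 libraries for both. Without it, 17 of the 24 fell and the median was -0.73.

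A further question is whether dexamethasone moved the genes that the exposures had changed. Genes raised by HDM were taken from HDM.AIR against PBS.AIR, libraries that are in neither arm of the comparison. Of the 2379 genes (13%) that HDM raised with a log2FC of at least 1, 478 fell after dexamethasone in HDM.CS mice (20.1%, against 5.4% of all genes) and 27 rose (1.13%), with a median log2FC of -0.32. Of the 1117 genes (6.12%) that HDM lowered, 24 rose (2.15%) and 48 fell (4.3%), with a median of -0.04. Genes changed by smoke were taken from PBS.CS against PBS.AIR. Of the 769 (4.21%) that smoke raised, 46 fell (5.98%) and 18 rose (2.34%), beside 5.4% and 2.46% of all genes, with a median of -0.04. Of those that smoke lowered (1.12%), 30 fell further (14.7%) and 1 rose, with a median of -0.35. Without HDM.CS.DEX replicate 8, 446 HDM-raised, 38 smoke-raised and 23 smoke-lowered genes fell. Set against PBS.AIR, the median log2FC of the HDM-raised genes was 1.24 in HDM.CS and 1.02 in HDM.CS.DEX, and that of the smoke-raised genes was 1.77 and 1.68, comparisons that share the PBS.AIR libraries with the choice of genes. HDM genes were also taken from mice at 3 weeks, with 10 HDM and 12 PBS parenchyma libraries. These HDM mice had received HDM on 5 days of each week for 3 weeks, without later HDM or smoke. Of the 2856 genes raised there, 460 fell after dexamethasone in HDM.CS mice (16.1%, against 4.76% of all genes in that fit) and 55 rose (1.93%). This choice of libraries was made after the data had been seen.

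**Figure D4:**
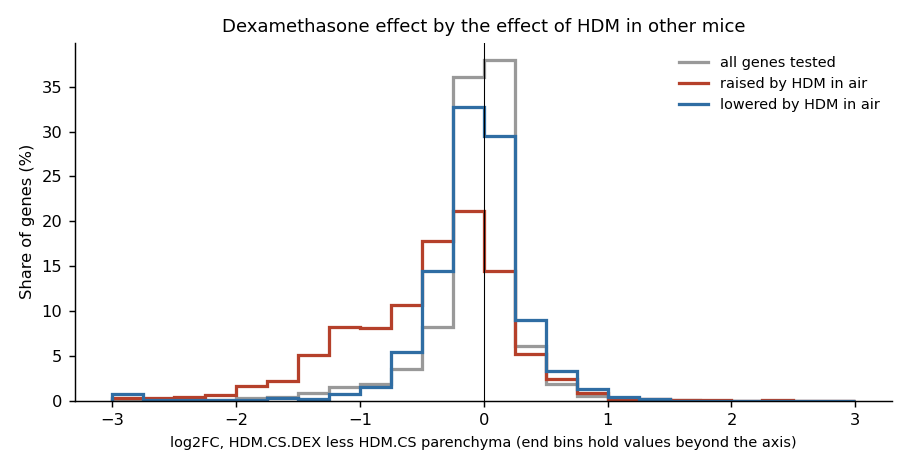
Distribution of the log2FC of HDM.CS.DEX less HDM.CS over all 18250 genes tested, the 2379 genes raised and the 1117 genes lowered by HDM in air-breathing mice, as a share of each set in bins of 0.25. The raised genes are spread to the left, with a median of -0.32, and the lowered genes are centred near the median of all genes.

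The effect was then set against that in PBS.AIR and HDM.AIR mice, with the difference between effects tested as an interaction term. Dexamethasone changed more genes in parenchyma of HDM.AIR mice, where 2235 rose (12.2%) and 2960 fell (16.2%), and of PBS.AIR mice, where 1939 rose (10.6%) and 2185 fell (12%). The effect in HDM.CS was higher than in HDM.AIR for 654 genes (3.58%) and lower for 381 (2.09%). Without HDM.CS.DEX replicate 8 these counts were 389 and 200, while the differences of single genes below are given with all libraries only. Timp1, an inhibitor of matrix proteases, had a log2FC of -2.42 ± 0.35 in HDM.AIR and 0.69 ± 0.31 (adjusted p = 0.177) in HDM.CS, a difference of 3.11 ± 0.47 (adjusted p = 5.61e-06). Serpinb9b fell in HDM.AIR (-0.76 ± 0.24) and rose in HDM.CS, a difference of 2.55 ± 0.34 (adjusted p = 1.79e-07). Ccne2, a cyclin of S phase entry, had -1.97 ± 0.22 and -0.07 ± 0.20, a difference of 1.90 ± 0.30 (adjusted p = 1.04e-05), and HDM.CS.DEX replicate 8 was its highest library. In the opposite direction, the thyroid hormone receptor gene Thra (difference -0.65 ± 0.10), the glutathione transferase gene Gstm1 (-0.89 ± 0.14) and 1810010H24Rik (-0.99 ± 0.19) rose in HDM.AIR but had log2FCs of 0.05, -0.07 and -0.07 in HDM.CS. The cell cycle list fell in 24 of 24 cases in HDM.AIR against 2 of 24 in HDM.CS (17 without replicate 8), and the type II list rose in 11 of 17 against 5 of 17. In PBS.CS mice 3 of 24 cell cycle genes fell and 8 of 17 type II genes rose, and in PBS.AIR mice 14 of 24 and 15 of 17. The differences between these list counts were not tested. The share of all genes that passed also differed between exposures, as given above for HDM.AIR and PBS.AIR, and is not given here for PBS.CS. The erythroid, dendritic and T cell lists fell in 9 of 12, 15 of 16 and 18 of 20 cases in HDM.AIR.

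Against PBS.AIR, the effect in HDM.CS was higher for 77 genes (0.422%) and lower for 0.805% of genes, and without replicate 8 for 0.312% and 0.515%. Cxcr1, a neutrophil chemokine receptor, had a log2FC of 4.12 ± 0.50 in PBS.AIR, 2.49 ± 0.46 in HDM.AIR and 0.19 ± 0.32 in HDM.CS, a difference from PBS.AIR of -3.93 ± 0.59 (adjusted p = 2.79e-06). Its level without DEX was already 11.1 to 25.6 CPM (median 16.2) in HDM.CS, against 1.79 to 3.95 CPM (median 2.12) in PBS.AIR. Trim29, a ubiquitin ligase of epithelium, rose in PBS.AIR (1.27 ± 0.18) and had -0.32 ± 0.12 (adjusted p = 0.0804) in HDM.CS, a difference of -1.59 ± 0.21 (adjusted p = 1.66e-07). Gpr55, a lipid receptor of leukocytes, rose in PBS.AIR (0.60 ± 0.16) and fell in HDM.CS (-0.77 ± 0.12), a difference of -1.37 ± 0.20 (adjusted p = 9e-07). The protein foldase gene Fkbp14 (difference 0.80 ± 0.15), the procollagen protease gene Adamts14 (1.33 ± 0.25) and Ankrd13a (0.39 ± 0.08) fell in PBS.AIR and did not pass in HDM.CS.

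**Figure D5:**
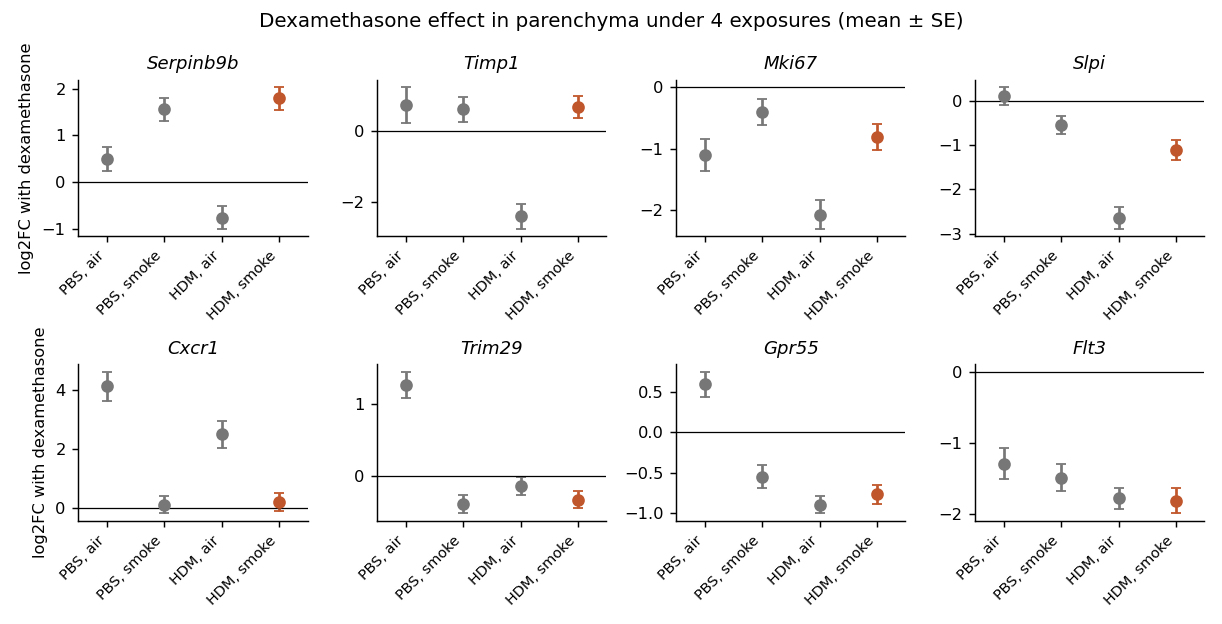
log2FC with dexamethasone (mean ± SE, 10 treated and 10 untreated libraries per point) for 8 genes in parenchyma of PBS.AIR, PBS.CS, HDM.AIR and HDM.CS mice. Flt3 falls under all 4 exposures, Timp1 and Serpinb9b differ in sign between HDM.AIR and HDM.CS, and Cxcr1, Trim29 and Gpr55 rise in PBS.AIR but not in HDM.CS.

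In the airway of HDM.CS mice dexamethasone raised 410 genes (2.25%) and lowered 1287 (7.05%). When airway and parenchyma libraries were taken as independent, the effect differed between the tissues for no gene at an adjusted p under 0.05 in limma, where 371 genes had an unadjusted p under 0.05 (2.03%), or in edgeR, where 467 did. DESeq2 found 1 gene, Atp2a1, a calcium pump of skeletal muscle (difference -4.48, adjusted p = 0.000668), which had a difference of -2.51 in limma. The values of the leading members were Slc4a1 -4.87 ± 0.66, Hbb-bt -3.88 ± 0.38, Flt3 -1.65 ± 0.15 and Serpinb9b 1.42 ± 0.25 in airway, beside -5.26 ± 0.63, -4.06 ± 0.37, -1.81 ± 0.18 and 1.79 ± 0.25 in parenchyma, each as a log2FC. In the lists, 20 of 24 cell cycle genes fell in airway beside 2 of 24 in parenchyma, and 8 of 17 goblet cell genes beside 1 of 17, where the parenchyma counts without HDM.CS.DEX replicate 8 were 17 and 0.

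The labels do not say which airway and parenchyma came from 1 mouse, but libraries with neighbouring codes in their titles deviated together from their group means. With these neighbours as pairs, a fit added after the data had been seen, the effect in parenchyma was higher than in airway for 55 genes (0.301%) and lower for 5 (0.0274%). The smallest p among the higher ones belonged to Ccne2 (difference 1.17 ± 0.19, adjusted p = 0.000959), Hmmr (1.25 ± 0.21, adjusted p = 0.000959) and Nusap1 (0.98 ± 0.18, adjusted p = 0.00544), the last 2 being genes of the mitotic spindle. Of the 24 cell cycle genes 12 were higher and none lower, with a median difference of 0.76. Among the lower ones were Ccl11 (-1.01 ± 0.20, adjusted p = 0.00587), Asb2 (-1.15 ± 0.26), part of a ubiquitin ligase, and Igfbp3 (-0.58 ± 0.14), which binds insulin-like growth factors. None of the 17 goblet cell genes differed in this fit, with 3 at an unadjusted p under 0.05. Without the pair that holds HDM.CS.DEX replicate 8 no gene passed, with 903 at an unadjusted p under 0.05 (4.95%). The difference was then 0.94 for Ccne2 and 0.87 for Hmmr, and the median of the cell cycle genes was 0.45.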

How the data were processed

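The authors deposited 1 table of expected counts per gene for 203 RNA-seq libraries of mouse airway and parenchyma. The submitters' processing notes name bcl2fastq 2.20.0.422, STAR 2.5.1b, RSEM 1.2.31, kallisto 0.44.0 and mm10. Which of these made the table and whether counting used strand are not given in the sources used here. All values were rounded, since 20.3% of those above 0 had decimals. Of 43346 identifiers, 42462 matched GENCODE M21 when versions were ignored (23106 with them), and symbols and positions come from that match. Every column matched the title of 1 library.

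The 16 groups at 11 weeks (160 libraries) were fitted together with limma-voom (limma 3.58.1, edgeR 4.0.16, R 4.3.3) after TMM scaling, on the 18250 genes whose CPM, in 9 or more libraries, was at least that of 10 counts at the median depth. A gene passed at a Benjamini-Hochberg adjusted p under 0.05, two-sided. Differences between dexamethasone effects were interaction contrasts of that fit. Airway and parenchyma libraries with neighbouring codes were also fitted as pairs. The correlation of their deviations from the group means was 0.25 to 0.57 in HDM.CS and 0.23 to 0.62 in HDM.CS.DEX. Each library was nearest to its neighbour in 10 of 10 cases in both groups. Pairs of the other exposures entered the same fit, and there 5 to 9 of 10 libraries per group were nearest to their neighbour. Their median correlations ran from 0.17 (PBS.AIR.DEX) to 0.38 (HDM.AIR.DEX). The pairing comes from the order of the codes and these values, and the labels do not state it. No library pair within a group agreed within counting noise (chi-square per degree of freedom of at least 8.758). Named genes were the 12 largest rises and falls among protein-coding genes with a mean of at least 1 CPM in the higher group, the 5 smallest p in each direction, up to 4 members of each list described with the smallest p, members of the classical target list, and the 3 smallest p in each direction of each difference of effects. The members, gene lists and motifs were chosen with earlier results of these data known. Motifs were searched in the 250 bases before RefSeq gene starts. Some genes that this rule names are not reported here. The fit was tested on simulated data. edgeR, DESeq2 1.42.0, other filters, scalings and fits, a test against a log2FC of 1 and leaving out single libraries were the alternatives.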

Additional observations from a re-analysis of the deposited data

Results flagged for a closer look

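Of 260 sets of 10 libraries examined, 1 for each of 130 genes in each group, 35 had 1 library set apart from the rest of its group by Dixon's test, where chance alone sets apart about 5% of groups, and 23 of the 35 were HDM.CS.DEX replicate 8. That library was the highest of its group for Sftpb (4919 CPM), Elovl1 (690.8 CPM), Krt8 (644 CPM), Krt18 (288.0 CPM), Cldn4 (43.1 CPM), Zbtb16 (20.6 CPM), Tgm2 (654 CPM), Fkbp5 (92.2 CPM), Mt2 (66.8 CPM) and Mki67 (95.4 CPM). It was also the highest for Top2a (78.2 CPM), Adamts4 (10.4 CPM), Col6a1 (371 CPM), Serpinb9b (28.3 CPM), Msln (156.1 CPM), S100a14 (179.8 CPM), Rab25 (43.7 CPM), Fkbp14 (29.3 CPM) and Ccne2 (11.35 CPM). It was the lowest for Cmpk2 (8.79 CPM), Sesn1 (21.7 CPM), Rgs5 (14.3 CPM) and Cxcr1 (4.12 CPM). Epithelial, proliferation and matrix genes were thus high together in 1 treated library, and so were the classical glucocorticoid targets Fkbp5, Zbtb16, Mt2 and Tgm2.

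HDM.CS replicate 2 was the highest of its group for the interferon genes Rsad2 (22.9 CPM), Cmpk2 (23.9 CPM) and Mx1 (8.41 CPM). HDM.CS replicate 3 was the lowest of its group for Pf4 (17.8 CPM) and for Ear1 (34.8 CPM), Ear2 (122.9 CPM) and Siglecf (15.9 CPM) of the eosinophil list, and the highest for Gata3 (8.41 CPM). Among treated libraries, replicate 10 was the lowest for Pf4 (14.99 CPM), replicate 5 the highest for Xcr1 (3.12 CPM) and C1s1 (118.9 CPM), and replicate 9 the highest for Gpr55 (7.49 CPM).

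Among the 130 genes examined, 30 differences of the dexamethasone effect between HDM.CS and HDM.AIR or PBS.AIR passed by the interaction test. Some of these genes were named for having the 3 smallest p in each direction of these same tests. Their passing followed from that choice, so the count of 30 is not a rate. These differences are from all libraries, HDM.CS.DEX replicate 8 included. Over all genes tested, the effect in HDM.CS was higher than in HDM.AIR for 3.58% and lower for 2.09%. It was higher than in PBS.AIR for 0.422% and lower for 0.805%. Compared with HDM.AIR, the log2FC in HDM.CS was higher by 3.11 for Timp1, 2.55 for Serpinb9b, 1.90 for Ccne2, 1.62 for Vcan, 1.59 for Top2a, 1.53 for Slpi, 1.40 for Cldn4, 1.28 for Msln and for Adamts4, 1.27 for S100a14, 1.26 for Mki67, 1.25 for Ccl2, 0.82 for Lif, 0.53 for Krt19 and 0.47 for Ano1. Against the same group the difference was -2.31 for Cxcr1, -0.99 for 1810010H24Rik, -0.89 for Gstm1, -0.77 for Fgfbp1, -0.72 for Dusp1 and -0.65 for Thra. Compared with PBS.AIR, the difference was 1.33 for Adamts14, 1.30 for Serpinb9b, 0.80 for Fkbp14 and 0.39 for Ankrd13a, and -3.93 for Cxcr1, -1.59 for Trim29, -1.37 for Gpr55, -1.24 for Slpi and -0.72 for Ctss.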

How the results depend on the processing

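Counts over all genes are given as a percent of the genes tested. In the fit reported, 2.46% were higher and 5.4% lower, and 0.115% and 1.92% with a log2FC of at least 1 in size. Genes higher made up 3.8% with DESeq2, 4.04% with 8 parenchyma groups in the fit, 4.76% with the 20 libraries alone and 6.18% with sample quality weights, which gave 9.98% lower and 0.203% higher with the fold limit. With the fold limit edgeR gave 0.192% higher and DESeq2 0.23%. A filter of at least 10 CPM gave 5.14% lower (627 genes, from fewer tested), and 0.0246% higher and 1% lower with the fold limit, and left 260 HDM-raised, 17 smoke-raised and 8 smoke-lowered genes that fell. The test against a log2FC of 1 gave 0 genes higher and 0.11% (20 genes) lower. Leaving out 1 library at a time gave 1.7% to 2.69% higher, 4.59% to 5.59% lower, and 0.0822% to 0.142% and 1.67% to 2.11% with the fold limit. The difference from PBS.AIR was higher for 0.811% with DESeq2 and 0.836% with 8 parenchyma groups, and lower for 1.5% with those groups and 0.314% without a filter. The difference from HDM.AIR was lower for 3.5% with 8 parenchyma groups. HDM-lowered genes that rose numbered 37 with DESeq2 and 49 with 8 parenchyma groups. DESeq2 gave 1 gene (0.00548%) lower in parenchyma than in airway. Leaving out HDM.CS.DEX replicate 8, an alternative chosen after seeing the data, gave 0.312% higher and 0.515% lower for the difference from PBS.AIR, 2.13% and 1.1% for that from HDM.AIR, and 446 HDM-raised, 24 HDM-lowered, 38 smoke-raised and 23 smoke-lowered genes. Taking HDM genes from the 3 week mice was also chosen after seeing the data. Both fits with a block were also added then. With sets of 20 codes as the block, each holding 1 library of every group, 3.69% were higher, the difference from PBS.AIR was higher for 0.696% and lower for 1.44%, and that from HDM.AIR was lower for 3.97%, while no other count moved by over 1.5 times. Same-set HDM.CS and HDM.CS.DEX libraries share only a place in the code order (correlation of deviations -0.13 to 0.28, over 0.1 in 5 of 10 pairs, with 2 of 10 libraries nearest to their own set). With neighbouring codes as pairs, the effect in parenchyma was higher than in airway for 0.301% and lower for 0.0274%, and without the pair of HDM.CS.DEX replicate 8 for 0 genes. No log2FC that passed changed sign under these alternatives, whereas that of Ccne2, which did not pass, ran from -0.26 to 0.14. Some named genes lost the threshold, however. With the filter of 10 CPM these were Mx1 (-1.10), Ccl11 (-1.45), Clca1 (-4.27), Cldn4 (0.80) and Thbs4 (-2.50). Without a filter they were Ighg2b (-1.47), Clca1 (-4.22), Cldn4 (0.80) and Tsc22d3 (-0.70). With the 20 libraries alone they were Cldn4 (0.80) and Top2a (-0.81). The cause of these shifts was not tested.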

Other observations

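Other gene lists also held some members that passed, beside 5.4% lower and 2.46% higher over all genes tested. Of 15 tested lymphoid tissue chemokine and lymphotoxin genes 4 fell and none rose: the B cell complement receptor Cr2 (log2FC -1.98), the chemokine receptors Cxcr5 (-1.35) and Ccr6 (-1.27), which guide lymphocytes to follicles and mucosa, and Ccr7 (-1.05), which guides dendritic and T cells to lymph nodes. Of 23 MAP kinase and immediate early genes 4 fell and none rose, with the phosphatase gene Dusp5 at -0.71. Without HDM.CS.DEX replicate 8, 3 genes fell in the lymphoid list and 3 in the MAP kinase list. In the acute phase and interleukin-6 list 2 of 18 rose, Socs3 (0.51), a feedback inhibitor of cytokine signalling, and Osmr (0.31), the oncostatin M receptor, and without HDM.CS.DEX replicate 8 neither passed. Among 13 mast cell genes Hdc, the enzyme that makes histamine and is also present in neutrophils, rose (0.66) while none fell. None of 21 cholesterol and fatty acid synthesis genes passed in limma, edgeR or DESeq2, with 1 at an unadjusted p under 0.05 in limma and a median log2FC of 0.10.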
